A study of Mus musculus with 8 samples.

Results

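Amino acid and peptide transporters were compared between fresh crypts of the small intestine (SI) and of the colon (COL). The genes were taken by name: all protein-coding genes in both count tables whose mouse symbol begins with Slc1a, Slc3a, Slc6a, Slc7a, Slc15a, Slc36a, Slc38a or Slc43a. This gave 69 of 21519 protein-coding genes, namely 7 of the SLC1 family, 2 of SLC3, 21 of SLC6, 16 of SLC7, 5 of SLC15, 4 of SLC36, 11 of SLC38 and 3 of SLC43. Slc7a6os is among them only because its symbol begins like that of its genomic neighbour Slc7a6, and it is not a carrier. Crypts are epithelial pockets in which the stem and dividing cells of the intestine sit. Their RNA was sequenced from 4 wild-type C57BL/6N mice, 2 female and 2 male, with 1 library of each tissue per mouse. The ages of the mice are not given in the sources used here. Both groups carry the wild-type genotype, no treatment is named for them, and the comparison is between the tissues. The isolation protocol, given for organoid cultures, names the proximal SI, from which villi are scraped before EDTA treatment. For the colon, more EDTA and a longer incubation are used.

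Amino acids and short peptides set free by digestion cross the absorptive cell in 2 steps. Carriers of the brush border take them up from the lumen with sodium, with protons or in exchange for another amino acid. Carriers of the basolateral membrane then pass them toward the blood. Several of these carriers are heterodimers, in which a heavy chain (rBAT or 4F2hc) brings a light chain of the SLC7 family to the membrane. Other members feed dividing cells, serve the lysosome, or carry neurotransmitters, creatine or taurine rather than dietary amino acids.

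The libraries held 15969428 to 32908060 counts. Levels are in CPM (counts over the TMM-scaled library size, times 1000000), and different transporter genes were compared only in CPM per kb of annotated exon. The marker sums that follow add CPM without regard to gene length. SI enterocyte markers (8 of 8 higher in SI) summed to 59501 to 140358 CPM in SI against 246 to 878 in COL. Colonocyte markers (4 of 6 higher in COL, 1 higher in SI) summed to 4751 to 32053 CPM in COL (2632 to 30001 of it Car1) against 481 to 1204 in SI. The SI crypts thus carried transcripts of differentiated absorptive cells. Paneth cell markers (6 of 7 higher in SI) summed to 605 to 4626 CPM in SI against 18.1 to 83.1 in COL. Goblet cell markers (2 of 6 higher in COL) summed to 2764 to 10742 CPM in SI against 11916 to 20961 in COL. Most of each COL sum in CPM was Muc2, with 7718 to 16197 CPM in COL against 379 to 988 in SI. Spink4 was also higher in COL than in SI, and per kb of exon its COL mean was 2278, against 1498 for Muc2. Tff3, Fcgbp, Zg16 and Clca1 did not pass the test (log2 fold changes 0.86, 0.66, 0.88 and -0.79). The part of these cell types in the results was not tested. Stem and cycling cell markers (1 of 6 higher in SI) summed to 43.3 CPM in SI1 and to 356 to 553 in the other SI libraries, against 198 to 459 in COL. The marker higher in SI was Olfm4, with 9.74 CPM in SI1, 161 to 254 in the other SI libraries and 0 to 3.50 in COL. Lgr5, Ascl2, Smoc2, Mki67 and Top2a did not pass the test (log2 fold changes -0.92, -1.43, -0.13, -0.63 and -0.35). Leukocyte markers (3 of 7 higher in SI) summed to at most 85.5 CPM, stromal markers to at most 19.1 and neuronal and glial markers to at most 4.41 in any library. The mitochondrial share of the counts was 22.7% to 50.8% in 2 libraries of each tissue (replicates 2 and 3 of SI, 1 and 2 of COL) and 4.83% to 7.35% in the others. SI1, for its markers, and COL2, for its mitochondrial share, stood apart from the rest. In bulk RNA, fewer cells of a type and less RNA per cell cannot be told apart.

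Transporter transcripts were more abundant in SI crypts as a whole. The 69 genes summed to 1903, 1404, 1368 and 2224 CPM per kb in SI1 to SI4 and to 172, 203, 440 and 332 in COL1 to COL4. The 2 tissues did not overlap, and the ratio of their means was 6.01. This ratio rests on the TMM scaling. Its factors were 0.727 to 0.798 in SI, which raise CPM, and 1.01 to 1.45 in COL, which lower it. The ratio under scaling by library size alone was not computed. In SI, 4 or 5 genes made up 50% of the sum, led by Slc6a19 with 17.2% ± 2.57 and Slc15a1 with 14.97% ± 3.53 (SD, n = 4). In COL, Slc6a14 alone held 40.9% ± 17.9 (SD, n = 4), from 24.5% in COL1 to 61.8% in COL3. Next in COL were Slc1a5 with 10.1% ± 6.22 and Slc6a8 with 6.63% ± 4.90 (SD, n = 4). Their ranges between libraries overlapped, although Slc1a5 held the larger share within each COL library.

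**Figure D1:**
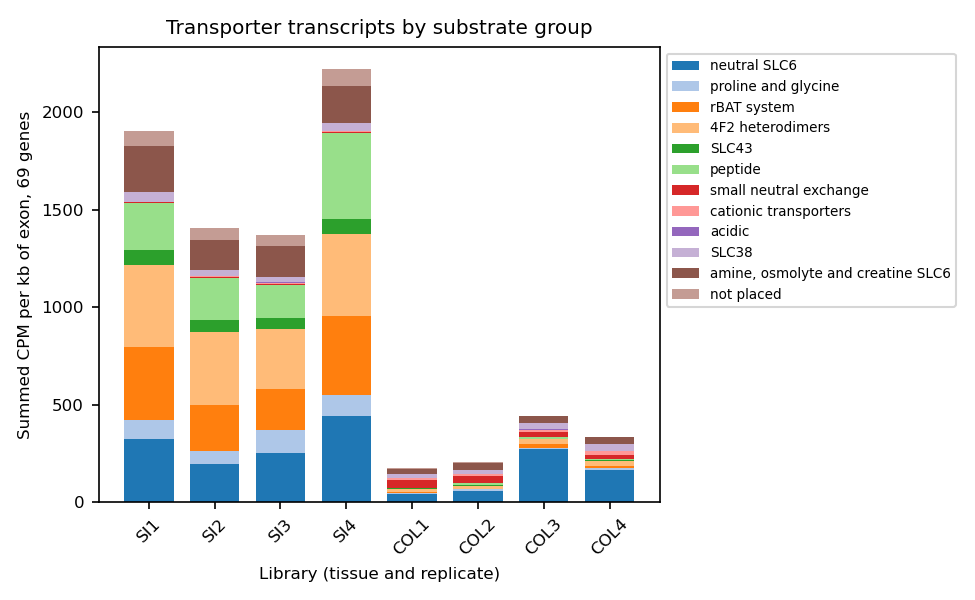
Summed CPM per kb of exon of the 69 transporter genes (y axis) in each SI and COL library (x axis), stacked by substrate group. The SI bars reach 1368 to 2224, mostly from the neutral SLC6, rBAT, 4F2 and peptide groups. The COL bars stay between 172 and 440, with the neutral SLC6 group as the tallest part in each, most of all in COL3 and COL4.

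Of the 69 genes, 44 passed the filter on low counts and were tested. Adjusted p-values fell below 0.05 for 15 genes higher in SI and 13 higher in COL. Over all 14491 genes tested, 28.4% passed this threshold, 15.5% with higher and 12.9% with lower expression in SI. The median log2 fold change, SI over COL, was 0.20 over the 44 genes and -0.09 over all genes. All 28 genes had the same direction in the 4 mice. Of the 44 genes tested, 27 did not overlap between the tissues in CPM, against 33.5% of all genes tested. All 27 were past the threshold, and the share among all genes past the threshold was not counted. With the donor mouse as block, the same 28 genes passed, against 28.1% of all genes. When tested against a log2 change of 1, 23 passed, against 14.3% of all genes. Without SI1 and COL2, 16 were higher in SI and 13 in COL, and 27 of the 28 kept their call, Slc7a11 being the exception. Within the libraries of high and within those of low mitochondrial share, all 28 kept the direction of their difference in mean log2 CPM. For the 27 genes without overlap, this and the shared direction in the 4 mice follow from that lack and add no support. Of the 44 genes, 34 reached the minimum count in at least 3 libraries of each tissue, 1 did so only in SI and 2 only in COL.

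**Figure D2:**
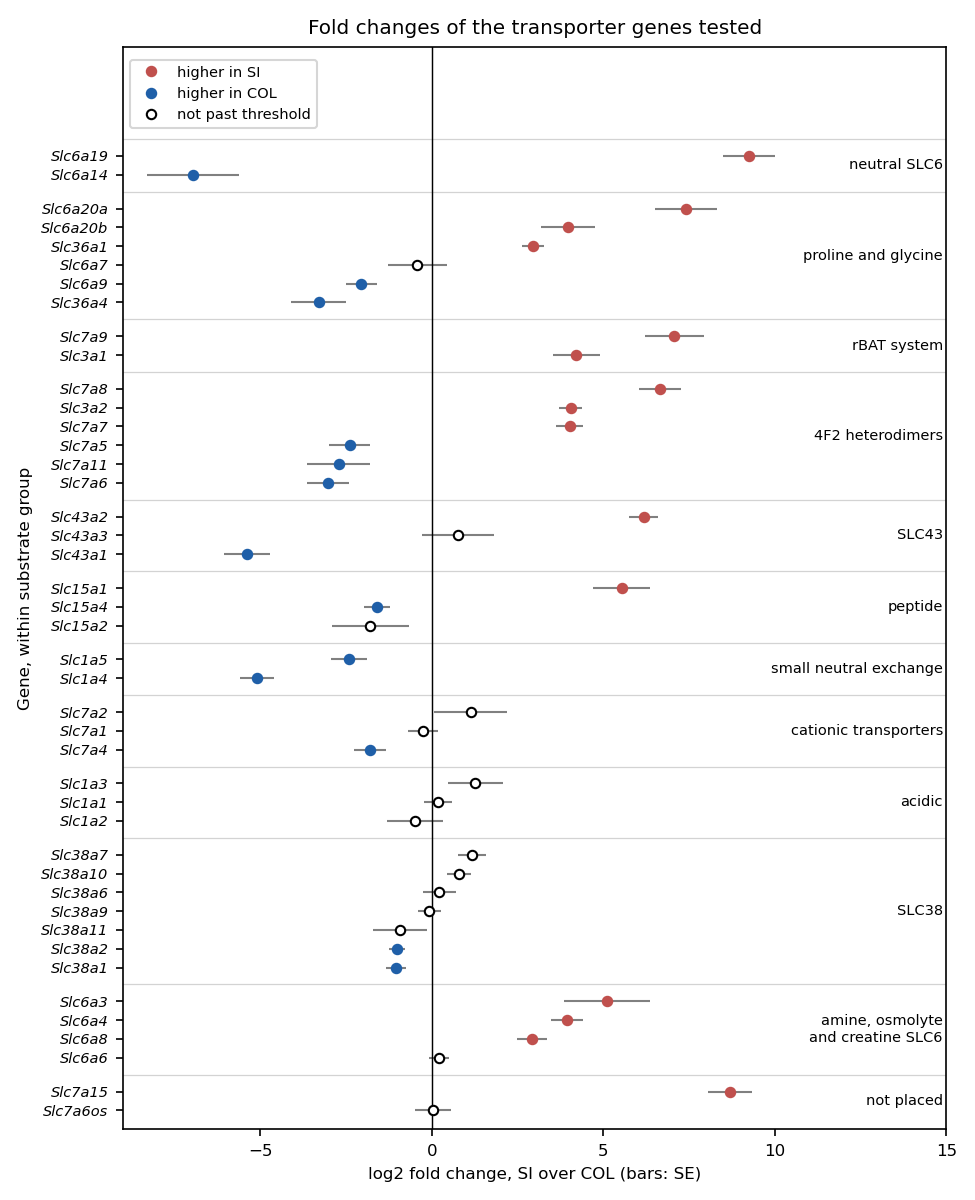
Log2 fold change of SI over COL (x axis, bars are standard errors) for 43 of the transporter genes tested, grouped by substrate (y axis). Filled points passed the threshold, red for higher in SI and blue for higher in COL, and most groups hold points on either side of 0.

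Brush border carriers moved in both directions. Of 9 genes listed for this step, 6 were higher in SI, 2 were higher in COL and 1 did not pass the test. Their median log2 fold change was 4.21. Thus 8 of 9 passed, against 28.4% of all genes, on a list chosen with earlier results of these data known. Slc6a19 (chr13:73679745-73704865, GRCm38) encodes B0AT1, the main sodium-driven carrier of neutral amino acids in the gut. It had 1606, 972, 1269 and 2200 CPM in SI1 to SI4 and 0.763, 3.79, 1.44 and 4.02 CPM in COL1 to COL4. Its log2 fold change of 9.24 (SE 0.75, edgeR adjusted p = 1.45e-05) was the largest of all members. An antisense gene, Slc6a19os, overlaps it, and use of the strand in counting is not given in the sources used here. Slc6a14 (chrX:21714896-21742355) encodes ATB0,+, which takes up neutral and cationic amino acids with sodium and chloride. It showed the opposite pattern, with 1.13, 1.81, 0 and 11.8 CPM in SI1 to SI4 and 145, 193, 934 and 567 CPM in COL1 to COL4. Its log2 fold change was -6.96 (SE 1.33, edgeR adjusted p = 0.00247), with -8.88 when SI4 and -6.34 when COL3 was left out. The COL libraries with the most Slc6a14, COL3 and COL4, were also those with the highest sums of colonocyte markers (32053 and 17241 CPM against 6477 in COL1 and 4751 in COL2). These sums were mostly Car1 (30001 and 15636 CPM in COL3 and COL4, 5998 in COL1 and 2632 in COL2). Aqp8, Slc26a3 and Ceacam20 were highest in COL2 (541, 467 and 126 CPM), Car4 in COL3 and Aqp4 in COL4. The part of colonocytes in the level of Slc6a14 was not tested. In SI, the highest value of Slc6a14 stood in SI4.

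Slc15a1 encodes PEPT1, the proton-coupled carrier of di- and tripeptides. It had 1190, 1034, 809 and 2163 CPM in SI1 to SI4 and 3.43, 63.6, 28.3 and 17.0 CPM in COL1 to COL4, a log2 fold change of 5.53 (SE 0.83, edgeR adjusted p = 0.000528). COL2 lay highest among the COL libraries, and without it the log2 fold change was 6.39. Among the other peptide and histidine carriers, Slc15a4, a carrier of the lysosomal membrane that was chosen after its values were seen, was higher in COL, with 7.94 to 9.57 CPM against 1.54 to 4.16 in SI (log2 fold change -1.60, SE 0.38, edgeR adjusted p = 0.00892). About 11.8% of the 50-base stretches of its transcript also occur in the overlapping gene Gm43474. Slc15a2, which encodes PEPT2, did not pass the test (log2 fold change -1.79, SE 1.12), though it did without a filter (-1.88) and in limma-voom with the donor block (-1.83), and Slc15a3 and Slc15a5 were below the filter.

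The sodium-driven proline carrier SIT1 is encoded by Slc6a20a. Its CPM values were 336, 153, 357 and 348 in SI1 to SI4 and 0.440, 0.124, 2.27 and 3.92 in COL1 to COL4. The log2 fold change was 7.41 (SE 0.91, edgeR adjusted p = 0.000137) and 8.23 without COL4. About 28.5% of the 50-base stretches of Slc6a20a also occur in Slc6a20b or in Gm17120, which overlaps it on the opposite strand. Slc6a20b lies 2204 bases from Slc6a20a on chromosome 9. Although also higher in SI (log2 fold change 3.96, 4.86 without COL2), it reached only 1.45 to 3.89 CPM there. Its transcript shares 38.9% of its 50-base stretches with other genes, Slc6a20a among them, so that its few counts are uncertain. Slc36a1 encodes PAT1, a proton-coupled carrier of glycine, proline and alanine at the brush border and in lysosomes. It had 105, 142, 137 and 119 CPM in SI1 to SI4 and 9.24, 20.3, 16.9 and 18.8 CPM in COL1 to COL4 (log2 fold change 2.95, SE 0.31, edgeR adjusted p = 4.99e-05). Its relative Slc36a4, which encodes PAT4, ran the other way, with 0.589, 0.302, 0 and 1.33 CPM in SI1 to SI4 and 5.06 to 6.19 CPM in COL (log2 fold change -3.30, SE 0.81, edgeR adjusted p = 0.0104, -4.19 without SI4). The glycine carrier gene Slc6a9 was also higher in COL, with 3.85 to 7.31 CPM against 0.608 to 1.81 in SI (log2 fold change -2.06, SE 0.46, edgeR adjusted p = 0.00584). It shares 41.2% of its 50-base stretches with Ccdc24 and Gm17114, which overlap it on the opposite strand. In all, 3 of the 9 proline and glycine carriers were higher in SI, 2 were higher in COL, 1 did not pass the test and 3 were below the filter. So 5 of the 6 tested passed, against 28.4% of all genes.

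Of the 5 carriers listed for the basolateral membrane, 4 were higher in SI and 1 in COL, with a median log2 fold change of 4.05. All 5 thus passed, against 28.4% of all genes, and this list too was chosen with earlier results known. Slc43a2 encodes LAT4, which lets branched-chain amino acids, phenylalanine and methionine leave the cell. It had 779, 638, 584 and 761 CPM in SI1 to SI4 and 9.68, 5.10, 12.7 and 10.7 CPM in COL1 to COL4. The log2 fold change was 6.18 (SE 0.43, edgeR adjusted p = 7.97e-06). Within the same family, Slc43a1, which encodes LAT3, was higher in COL, with 6.63, 3.73, 8.53 and 13.3 CPM against 0.0906, 0.242, 0.0507 and 0.366 CPM in SI1 to SI4. Its log2 fold change was -5.39 (SE 0.67, edgeR adjusted p = 0.000145) and -6.00 without SI4, and rests on 1 to 8 counts per SI library. Slc43a3 did not pass the test (log2 fold change 0.77, SE 1.05).

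The heterodimeric carriers differed between the tissues in their light chains. The heavy chain 4F2hc is encoded by Slc3a2, and its CPM per kb was 143, 111, 87.0 and 106 in SI1 to SI4 and 6.51, 5.39, 8.75 and 6.33 in COL1 to COL4. The log2 fold change was 4.05 (SE 0.33, edgeR adjusted p = 1.5e-05). Slc7a7 encodes the light chain y+LAT1, which releases cationic amino acids into the blood. It had 513, 432, 360 and 569 CPM in SI1 to SI4 and 17.6, 22.5, 34.0 and 41.7 CPM in COL1 to COL4 (log2 fold change 4.02, SE 0.39, edgeR adjusted p = 3.21e-05). Slc7a8 encodes the light chain LAT2, a neutral amino acid exchanger. It had 603, 663, 545 and 708 CPM in SI1 to SI4 and 3.70, 1.68, 9.74 and 9.76 CPM in COL1 to COL4 (log2 fold change 6.65, SE 0.62, edgeR adjusted p = 2.79e-05).

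The 3 other light chains listed for 4F2hc were higher in COL. Slc7a6, which encodes y+LAT2, had 0.498, 0.725, 0.507 and 2.84 CPM in SI1 to SI4 and 13.9, 6.34, 7.20 and 9.93 CPM in COL1 to COL4 (log2 fold change -3.02, SE 0.62, edgeR adjusted p = 0.00352, -4.05 without SI4). Slc7a5, which encodes LAT1, a carrier of large neutral amino acids in dividing cells, had 0.544, 1.03, 2.99 and 1.33 CPM in SI1 to SI4 and 13.5, 3.29, 6.45 and 7.69 CPM in COL1 to COL4 (log2 fold change -2.39, SE 0.59, edgeR adjusted p = 0.0108, -2.98 without SI3). Slc7a11, which encodes the cystine and glutamate exchanger xCT, had 1, 13, 1 and 2 counts in SI1 to SI4 and 66, 28, 47 and 63 counts in COL1 to COL4. Its log2 fold change of -2.71 (SE 0.91, edgeR adjusted p = 0.0434) rests on these low counts. When libraries were left out singly, it passed the threshold in 1 of 8 fits, that without SI2, which gave -4.52. It passed with the donor block (adjusted p = 0.0245).

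Summed per kb, the 5 light chains listed for 4F2hc amounted to 2.44 ± 0.43 times the level of Slc3a2 in SI (SD, n = 4). In COL they amounted to 2.13 ± 0.58 times (SD, n = 4), and these ranges overlapped. Slc7a15, an SLC7 gene placed in no group, was left out of this sum. Its mean CPM per kb was 69.2 in SI and 0.181 in COL. The makeup of the sum of the 5 differed between the tissues without overlap. Slc7a7 and Slc7a8 supplied 99.6% to 99.9% of the light chain sum in SI and 46.9% to 78.2% in COL, where Slc7a5, Slc7a6 and Slc7a11 supplied the other 21.8% to 53.1%. The rBAT heavy chain Slc3a1 and its light chain Slc7a9, which together take up cystine and cationic amino acids, were both higher in SI. Slc3a1 (chr17:85028376-85064236) had 393, 219, 204 and 456 CPM in SI1 to SI4 and 5.25, 5.10, 38.2 and 19.8 CPM in COL1 to COL4 (log2 fold change 4.21, SE 0.69, edgeR adjusted p = 0.000902, 4.98 without COL3). Slc7a9 (chr7:35448796-35466036) had 534, 376, 335 and 541 CPM in SI1 to SI4 and 0.469, 0.870, 5.08 and 6.66 CPM in COL1 to COL4 (log2 fold change 7.07, SE 0.86, edgeR adjusted p = 0.000123, 7.68 without COL4). Per kb, Slc7a9 stood at 1.01 to 1.46 times the level of Slc3a1 in SI but at 0.0759 to 0.286 times in COL. As 24.8% of the 50-base stretches of Slc3a1 also occur in the overlapping gene Prepl on the opposite strand, reads of the 2 genes cannot be told apart there without the strand. In COL, both genes were highest in COL3 and COL4, as was Slc6a14.

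Slc7a15 encodes arpAT, a relative of Slc7a9, and was placed in no substrate group. It had 231, 173, 168 and 256 CPM in SI1 to SI4 and 0.176, 1.24, 0.241 and 0.503 CPM in COL1 to COL4. Its log2 fold change of 8.69 (SE 0.65, edgeR adjusted p = 9.7e-06, 9.38 without COL2) came next to that of Slc6a19.

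**Figure D3:**
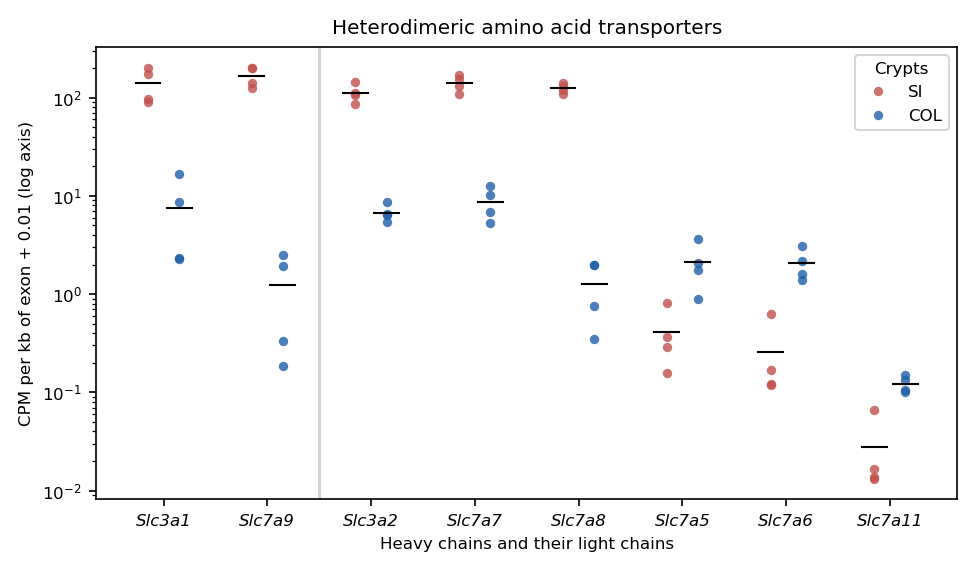
CPM per kb of exon plus 0.01 (log y axis) of the heavy chains Slc3a1 and Slc3a2, each followed by light chains listed for it (x axis). Points are the 4 SI and 4 COL libraries, with the mean as a line. Slc7a9, Slc7a7 and Slc7a8 follow their heavy chains upward in SI, whereas Slc7a5, Slc7a6 and Slc7a11 lie higher in COL.

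Of the 3 exchangers of small neutral amino acids, 2 were higher in COL and Slc7a10 was below the filter. Both of the 2 tested thus passed, against 28.4% of all genes. Slc1a4, which encodes ASCT1, an exchanger of alanine, serine, cysteine and threonine, had 0.453, 1.21, 0.304 and 1.24 CPM in SI1 to SI4 and 37.0, 21.0, 26.7 and 24.4 CPM in COL1 to COL4. Its log2 fold change was -5.09 (SE 0.49, edgeR adjusted p = 2.9e-05). Slc1a5, which encodes ASCT2, the glutamine exchanger of many dividing cells, had 3.99, 34.9, 19.2 and 15.3 CPM in SI1 to SI4 and 114, 127, 73.7 and 75.4 CPM in COL1 to COL4. The log2 fold change was -2.41 (SE 0.53, edgeR adjusted p = 0.00532). SI1, the library with the fewest transcripts of stem and cycling cells, had the lowest value, and without it the log2 fold change was -2.06. Of the cationic amino acid carriers without a heavy chain, Slc7a4, for which no transport activity is established, was higher in COL, with 31.7, 18.8, 55.2 and 66.3 CPM against 11.2, 5.01, 19.0 and 14.3 CPM in SI1 to SI4 (log2 fold change -1.79, SE 0.46, edgeR adjusted p = 0.0137). It was the member past the threshold whose tissues overlapped, as COL2 lay just under SI3. Slc7a1, which encodes the arginine and lysine carrier CAT1, had 4.39, 20, 25.7 and 13.1 CPM in SI1 to SI4 and 24.4, 19.8, 15.5 and 15.6 CPM in COL1 to COL4 and did not pass the test (log2 fold change -0.25, SE 0.44). Its sign turned when SI1 was left out (0.077).

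**Figure D4:**
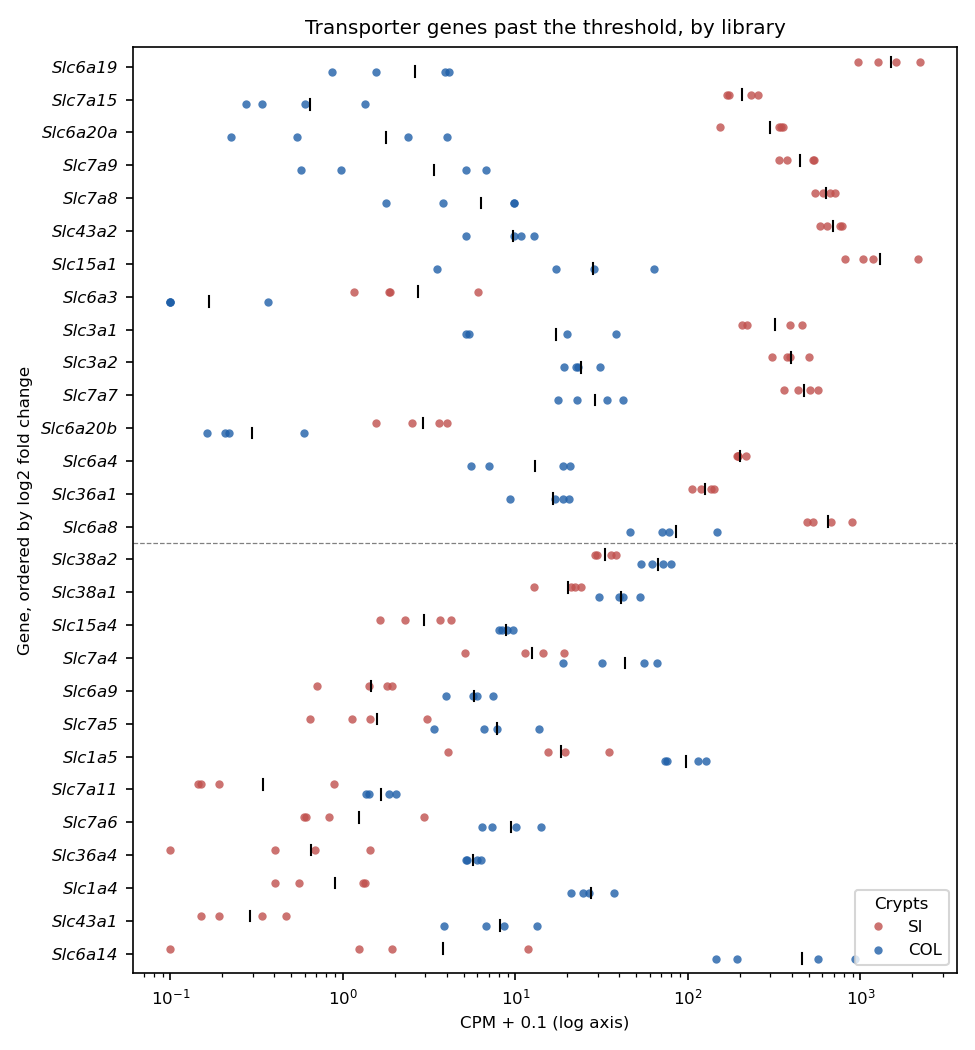
CPM plus 0.1 (log x axis) of the 28 transporter genes past the threshold (y axis, ordered by log2 fold change), with 1 point for each of the 4 SI and 4 COL libraries and the mean as a black line. Genes above the dashed line were higher in SI and those below it higher in COL, and the points of the tissues are apart for 27 of the 28 genes, with Slc7a4 as the exception.

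Start-site sequences are shown for Slc7a11, Slc1a4, Slc7a7 and Slc3a1, since the first 3 hold the letters TGATGNAA, the pattern of elements bound by ATF4, the transcription factor of the amino acid response, and lie on either side of the comparison. The fourth holds a match each to patterns named for HNF4 and CDX, factors of the gut epithelium. Each line gives 250 bases before and 10 bases from the RefSeq start (GRCm38.p6) on the gene's strand, with the matches in capitals. All 4 lines are written 5′ to 3′, from chr3:50443604-50443863 and chr11:20332704-20332963, then chr14:54417693-54417952 (these 3 on the minus strand) and chr17:85028097-85028356 (plus strand).
Slc7a11: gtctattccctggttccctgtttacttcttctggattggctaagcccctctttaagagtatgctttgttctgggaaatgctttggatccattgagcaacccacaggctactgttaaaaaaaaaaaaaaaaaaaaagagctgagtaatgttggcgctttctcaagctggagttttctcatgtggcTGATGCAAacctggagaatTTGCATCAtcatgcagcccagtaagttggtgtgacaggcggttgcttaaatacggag
Slc1a4: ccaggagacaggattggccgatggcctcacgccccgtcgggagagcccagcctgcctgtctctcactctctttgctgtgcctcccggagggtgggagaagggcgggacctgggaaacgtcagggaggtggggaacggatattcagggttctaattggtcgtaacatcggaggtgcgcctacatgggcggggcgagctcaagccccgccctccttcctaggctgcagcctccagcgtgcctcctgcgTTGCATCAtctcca
Slc7a7: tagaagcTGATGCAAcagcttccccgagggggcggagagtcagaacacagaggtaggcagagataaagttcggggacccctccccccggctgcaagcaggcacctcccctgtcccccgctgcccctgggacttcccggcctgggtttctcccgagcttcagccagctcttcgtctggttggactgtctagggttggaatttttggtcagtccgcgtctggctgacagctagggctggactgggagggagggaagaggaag
Slc3a1: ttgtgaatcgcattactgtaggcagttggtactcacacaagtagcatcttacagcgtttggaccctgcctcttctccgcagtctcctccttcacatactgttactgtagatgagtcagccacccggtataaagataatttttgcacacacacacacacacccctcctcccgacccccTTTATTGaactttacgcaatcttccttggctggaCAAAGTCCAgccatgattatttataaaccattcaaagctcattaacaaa

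Among 71 RefSeq promoters of 50 of the 69 genes, TGATGNAA occurred on either strand in 6, of the genes Slc15a5, Slc1a4, Slc6a21, Slc7a11 and Slc7a7, and in 3.97% of all 32851 promoters of 300 bases. Slc7a11 held it on both strands, 66 and 47 bases before the start. In Slc1a4 it began 4 bases before the start, and in Slc7a7 243 bases before it. A further Slc7a7 promoter upstream holds the same match in the stretch where the windows overlap, and a further match. CAAAGTCCA (HNF4) occurred in Slc3a1 alone, 39 bases before the start, and in 0.475% of all promoters. A CDX pattern, TTTAT followed by any base and a G, occurred in Slc3a1 and Slc7a15 and in 10.9% of all promoters. The letters AGATAAG, named for factors of the GATA family, occurred in Slc38a4 and Slc7a9 and in 3.04% of all promoters. A 10-letter pattern named for HNF1 matched 0 of the 71 and 0.399% of all promoters. No match overlapped another in the 4 stretches shown, and a match is a description of the letters and not of binding. Of the genes with TGATGNAA, Slc7a11 and Slc1a4 were higher in COL and Slc7a7 was higher in SI.

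Carriers of neurotransmitters and metabolites also differed. Of the 8 carriers of amines, osmolytes and creatine reported here, 4 were tested and 3 passed, against 28.4% of all genes. These 3 were higher in SI, 1 did not pass the test and 4 were below the filter. Among the last was Slc6a12, which encodes a betaine carrier, with 0, 0, 4 and 0 counts in SI1 to SI4 and 23, 0, 48 and 45 counts in COL1 to COL4. It was higher in COL in 4 of the 7 fits in which it was tested, namely those without a filter (edgeR adjusted p = 0.0350), without SI3 (0.0364), without COL2 (0.0232) and without SI1 and COL2 (0.0373). Slc6a4, Slc6a12 and Slc6a8 were named after their values were seen. The serotonin carrier gene Slc6a4 had 216, 195, 192 and 195 CPM in SI1 to SI4 and 5.46, 6.90, 20.5 and 18.8 CPM in COL1 to COL4 (log2 fold change 3.95, SE 0.46, edgeR adjusted p = 0.000102). The creatine carrier gene Slc6a8 had 893, 493, 529 and 677 CPM in SI1 to SI4 and 46.1, 147, 77.4 and 70.7 CPM in COL1 to COL4 (log2 fold change 2.92, SE 0.43, edgeR adjusted p = 0.00048). The dopamine carrier gene Slc6a3, with 131, 29, 21 and 39 counts in SI1 to SI4 and 0, 0, 10 and 0 counts in COL1 to COL4, had a log2 fold change of 5.11 (SE 1.26, edgeR adjusted p = 0.00979), 4.35 without SI1. Without COL3, the other COL libraries hold no count of Slc6a3 and the fitted 9.07 is no measure of its size. The taurine carrier gene Slc6a6 differed by less than its spread, with 128 to 155 CPM in SI and 70.8 to 148 in COL (log2 fold change 0.21, SE 0.29).

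Members of the SLC38 family are carriers of glutamine and other neutral amino acids, many of them coupled to sodium. Of 11, 0 were higher in SI (edgeR and limma-voom, with 1 by DESeq2 and 2 at unadjusted p below 0.05 in edgeR), 2 were higher in COL, 5 did not pass the test and 4 were below the filter. Thus 2 of the 7 tested passed, against 28.4% of all genes, and their median log2 fold change was -0.07. The neighbours Slc38a1 and Slc38a2, which encode SNAT1 and SNAT2 and were named after their values were seen, were higher in COL. Slc38a2 had 28.9 to 38.4 CPM in SI and 53.3 to 79.7 in COL (log2 fold change -1.01, SE 0.24, edgeR adjusted p = 0.00866). Slc38a1 had 12.8 to 24.0 CPM in SI and 30.3 to 52.6 in COL (log2 fold change -1.04, SE 0.28, edgeR adjusted p = 0.0159), and missed the threshold without COL4 (-0.89). Slc38a10 had 210, 104, 100 and 175 CPM in SI1 to SI4 and 72.3, 53.6, 97.8 and 116 CPM in COL1 to COL4 (log2 fold change 0.79, SE 0.35, edgeR adjusted p = 0.114). Slc38a7, which encodes the lysosomal glutamine carrier SNAT7, had 32.1, 16.6, 8.47 and 26.1 CPM in SI1 to SI4 and 7.30, 6.71, 11.0 and 11.96 CPM in COL1 to COL4. It lay at the threshold (log2 fold change 1.17, SE 0.40, edgeR adjusted p = 0.0501) and passed it without SI3 (1.45). Among 7 carriers listed for the lysosomal membrane, Slc36a1 was higher in SI, and Slc36a4 and Slc15a4 were higher in COL. Slc38a7 and Slc38a9 did not pass the test, and 2 were below the filter. So 3 of the 5 tested passed, against 28.4% of all genes.

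Of the 5 acidic amino acid carriers, 0 passed the threshold by edgeR, limma-voom or DESeq2, 0 had an unadjusted p below 0.05 and 2 were below the filter. By edgeR, 28.4% of all genes passed. Without SI1 and COL2, Slc1a3 was higher in SI (log2 fold change 1.30, edgeR adjusted p = 0.0163, against 1.27 with all libraries), the gene added to those higher in SI in that fit. Slc1a1, which encodes EAAT3, the glutamate and aspartate carrier of the brush border, had 4.26, 7.92, 16.1 and 13.8 CPM in SI1 to SI4 and 7.33, 8.20, 9.87 and 11.4 CPM in COL1 to COL4 (log2 fold change 0.19, SE 0.40). The value turned to -0.071 without SI3. About 30.1% of the 50-base stretches of Slc1a1 also occur in 4430402I18Rik, which overlaps it on the opposite strand. Other members that did not pass the test were Slc1a2, Slc1a3, Slc6a7, Slc7a2, Slc7a6os, Slc38a6, Slc38a9 and Slc38a11. The 25 genes below the filter reached at most 4.39 CPM, for Slc38a8 in SI1. They were Slc1a6, Slc1a7, Slc6a2, Slc6a5, Slc6a11, Slc6a12, Slc6a13, Slc6a15, Slc6a16, Slc6a17, Slc6a18, Slc6a21, Slc7a3, Slc7a10, Slc7a12, Slc7a13, Slc7a14, Slc15a3, Slc15a5, Slc36a2, Slc36a3, Slc38a3, Slc38a4, Slc38a5 and Slc38a8. Slc7a10 had 0 counts in all 8 libraries, which allows up to 3 counts in each. Slc6a18, the neighbour of Slc6a19 at a distance of 1721 bases and a brush border carrier of the kidney, had 5, 0, 2 and 0 counts in SI1 to SI4 and 0 in every COL library.

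Partners of these carriers and carriers of other families were read in the same fit, from a list of 16 genes of which 6 were higher in SI, 2 were higher in COL, 5 did not pass the test and 3 were below the filter. Of the 13 tested, 8 passed, against 28.4% of all genes. Cltrn, which encodes collectrin, a partner of amino acid carriers in the kidney, had 3, 5, 2 and 5 counts in SI1 to SI4 and 0, 0, 3 and 0 in COL1 to COL4, too few for a fold change. Slc16a10 encodes TAT1, the basolateral carrier of aromatic amino acids, and had 250, 158, 176 and 178 CPM in SI1 to SI4 and 2.18 to 3.46 CPM in COL (log2 fold change 6.13, SE 0.34, edgeR adjusted p = 3.81e-06). The others higher in SI were Slc25a15, Slc25a22, Slc25a38 and Slc25a44 of the mitochondrial carriers and the lysosomal cystine carrier gene Ctns, while Slc25a29 and Slc25a40 were higher in COL. When each library was left out in turn, Slc25a38 passed in 2 of 8 fits and Slc25a40 in 4 of 8.

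Genes of the amino acid response, which cells switch on through ATF4 when amino acids run short, went in both directions. Of 12, 3 were higher in SI, 2 were higher in COL and 7 did not pass the test. Thus 5 of 12 passed, against 28.4% of all genes. The median log2 fold change was -0.02, against -0.09 over all genes. Trib3, which encodes a pseudokinase, was higher in SI with 28.5, 15.8, 35.8 and 52.6 CPM against 0, 0, 0.187 and 0.586 CPM in COL1 to COL4 (log2 fold change 7.17, SE 0.89, edgeR adjusted p = 0.000143). Aldh18a1, an enzyme of proline synthesis, and Ddit3, a transcription factor, had higher values in SI, with log2 fold changes of 2.03 and 1.27. Phgdh, an enzyme of serine synthesis, and Vldlr, a lipoprotein receptor, were lower in SI with log2 fold changes of -2.12 and -2.46. Atf4 itself had 109 to 157 CPM in SI and 83.5 to 112 in COL (log2 fold change 0.48, SE 0.25, edgeR adjusted p = 0.186), and Asns did not pass the test (log2 fold change -0.76, SE 0.38). The genes of this list other than Atf4 and Asns are named after their values were seen.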

How the data were processed

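The authors sequenced RNA of SI and COL crypts of 4 mice. Per the labels' processing notes, reads were trimmed with Trimmomatic 0.36 and aligned with STAR 2.5.2b, and the methods name mm10. The authors deposited whole-number counts per Ensembl gene for 45706 genes, without normalization. Symbols and coordinates came from GENCODE vM21 (GRCm38), which holds 45143 of them. Promoters came from RefSeq (GRCm38.p6).

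SI was compared with COL by the quasi-likelihood test of edgeR 4.0.16 (R 4.3.3) with TMM normalization. The filter (filterByExpr) asked 4 libraries for the CPM that 10 counts make at median depth, and a total of 15. P-values were adjusted by Benjamini-Hochberg over 14491 genes, with a threshold of 0.05. Log2 fold changes are SI over COL, with standard errors from the coefficient and the F statistic. The methods name limma without its settings, so limma 3.58.1 (voom) was an alternative, as were DESeq2 1.42.0, the donor mouse as block, other scalings and filters, the mitochondrial share as covariate, and leaving out each library. Leaving out SI1 and COL2 together was added after seeing the data. The labels number the donors, which pairs the libraries. After removal of tissue means, the paired libraries of replicates 1 to 4 correlated at -0.24, 0.39, -0.08 and 0.33 across genes, and libraries of different mice at -0.03 on average.

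The members and gene lists were chosen with earlier results of these data known. Genes were named if listed as absorptive carriers, if among the 10 largest log2 fold changes past the threshold in either direction with at least 1 CPM in the higher tissue, or if among the 5 members not past it with the highest CPM per kb. Cltrn and Slc16a10 were added. Of the members and lists, 2 genes are not reported here. Stretches of 50 bases shared with other genes were counted over the longest transcript. At 15969428 to 32908060 counts per library, the spread between mice sets the precision of all but the low-count genes.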

Additional observations from a re-analysis of the deposited data

Results flagged for a closer look

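In 8 of 68 sets of 4 libraries, 1 library lay far from the other 3 of its tissue by Dixon's ratio (beyond its 95% critical value for 4). Chance gives this in about 1 of 20 sets of independent normal values. The sets here share the same 8 libraries and some are near 0, so the 8 cannot be set against that rate. Slc6a20a had 153 CPM in SI2 against 336 to 357 in the other SI libraries. Slc6a14 had 11.8 CPM in SI4 against 0 to 1.81. Slc7a6 had 2.84 CPM in SI4 against 0.498 to 0.725. Slc7a11 had 0.785 CPM in SI2 against 0.0453 to 0.0916. Slc6a4 had 216 CPM in SI1 against 192 to 195. Slc6a3 had 5.93 CPM in SI1 against 1.06 to 1.79, and 0.267 CPM in COL3 against 0 in the other COL libraries. Slc6a20b had 0.497 CPM in COL2 against 0.0628 to 0.117. The flagged values did not close the gap between the tissues in any of these genes, and their cause was not tested.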

How the results depend on the processing

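Leaving out each library in turn gave 15 to 16 members higher in SI and 11 to 14 higher in COL, 1707 to 2393 and 1442 to 2187 of all genes, and 8 to 10 and 3 to 5 genes of the lists of partners and of the amino acid response. Against a log2 change of 1, 8 members were higher in COL, 1089 of all genes were higher in SI and 983 in COL, and the lists gave 5 and 2. With at least 10 counts in every library, which removes genes that are near 0 in 1 tissue, 19 members passed, 8 of them higher in COL. Of the members higher in SI, this removed Slc6a20a, Slc6a20b, Slc6a3 and Slc7a15. Scaling by library size alone shifted the median over all genes from -0.09 to -0.82 (log2), with 1115 genes higher in SI and 4788 in COL and 5 and 8 in the lists, while 15 and 14 members passed. There, 5 members not past the threshold changed sign, namely Slc1a1 (-0.55), Slc38a10 (-0.0039), Slc6a6 (-0.58), Slc38a6 (-0.43) and Slc7a6os (-0.63). With libraries left out singly, Slc1a1 ranged from -0.071 (without SI3) to 0.47 and Slc7a1 from -0.57 to 0.077 (without SI1), and Slc7a1 also turned without SI1 and COL2 together (0.059). Within the libraries of low mitochondrial share, the differences in mean log2 CPM of Slc1a1 (-0.46), Slc1a3 (-0.80), Slc7a2 (-1.24) and Slc6a6 (-0.023) changed sign, as did those of Slc7a1 (0.043), Slc43a3 (-0.92), Slc38a6 (-0.36) and Slc7a6os (-0.41) within those of high share. Over all of these settings, 11 of the 43 members tested and reported here changed sign in at least 1, and 0 of the 11 were past the threshold. Slc38a7 passed the threshold with DESeq2, without a filter and with the mitochondrial share as covariate, and Slc38a10 passed with that covariate. The replicate block, the donor mouse, gave 15 and 13 members, 2221 and 1851 of all genes and 9 and 4 in the lists by edgeR, and changed no call of a member there. By limma-voom, 30 members passed with the block and 29 without it, the difference being Slc15a2. P-values from 4 mice per tissue limit the calls of genes of few counts.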
